A study of Danio rerio with 15 samples.

Results

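The gene leo1 encodes a subunit of the Paf1 complex, 1 of 8793 genes that the array's annotation names by a single symbol. The array read it with 2 of its 15502 tested probe sets, Dr.11557.1.A1_at and Dr.24919.1.A1_s_at, called here the A1_at and the A1_s_at probe set. Both carry the symbol leo1 (NCBI Gene 404599) in that annotation. The gene was chosen because its level differed between the sexes and because its probe sets disagreed, both read from these same values, so its sex differences and the disagreement are given below as a description without a test. Whole brains of 15 adult zebrafish were profiled, 1 fish per array, to ask how the brain responds to a short selenium supplement. The groups were 4 females on a diet with 5.6 ppm selenium, added as sodium selenite, 3 females on the control diet with 1.4 ppm, and 4 males on each of these diets, all fed for 14 days. All fish were about 1 year old and sexually mature and belonged to the strain labelled Transgenic Mosaic 1, and the labels do not say which transgene it carries. The labels give no batch, cage or litter, so the spread below is that between these fish.

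The Paf1 complex travels with RNA polymerase II along genes that are being transcribed. It is made of Paf1, Ctr9, Cdc73, Rtf1, Leo1 and Wdr61, and it helps the polymerase through chromatin and brings in the enzymes that ubiquitinate and methylate histones in the wake of transcription. In zebrafish embryos, subunits of the complex are needed for development of the heart and of the neural crest. Because the RNA came from whole brains, fewer cells of a type and less RNA per cell cannot be told apart in any value below.

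The arrays were alike in their overall distribution, with medians between 7.24 and 7.35 log2 units and correlations between any 2 arrays from 0.979 to 0.992. Within this range the medians were lower in females on selenium, at 7.24 to 7.29, than in control females, at 7.31 to 7.35, with no overlap. The dissections held brain. The mean level of 5 measured neuronal genes, among them snap25a and elavl3, lay between 11.97 and 12.11 in every fish, and that of 7 glial genes, among them gfap and mbpa, between 11.46 and 11.69. Signal of other tissue varied more. The mean of 19 measured skeletal muscle genes of 25 listed lay between 6.42 and 6.84 in females on selenium, 5.77 and 6.14 in control females, 6.37 and 9.71 in males on selenium and 6.06 and 6.49 in control males. The mean of 15 measured retina genes of 25 listed lay between 4.82 and 6.67 in females on selenium, 4.74 and 6.91 in control females, 5.05 and 9.32 in males on selenium and 4.75 and 6.03 in control males. Over all fish, the list means ran from 9.60 to 11.02 for 4 erythrocyte genes, from 7.86 to 8.65 for 9 leukocyte and microglia genes, with all groups overlapping in both, and from 5.33 to 5.68 for 10 germ cell genes. The germ cell mean was higher in females on selenium, at 5.45 to 5.68, than in control females, at 5.33 to 5.42, with no overlap, and its part in the diet difference of leo1 in females was not tested. Most genes of that list read low, among them ddx4 at a mean of 4.08 and zp3 at 3.91 log2 units, while nanos3 read 9.48. The muscle mean also set females on selenium above control females with no overlap.

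By the A1_at probe set, leo1 was lowest in females on selenium and highest in males on selenium, with the control fish of both sexes between them. The level was 10.80, 10.68, 10.76 and 10.74 log2 units in the 4 females on selenium, against 11.98, 11.72, 12.17 and 12.16 in the 4 males on selenium. The 2 groups did not overlap, as for 10.2% of all probe sets, and the highest female lay 0.92 log2 units below the lowest male. On the control diet the level was 11.40, 11.42 and 11.09 in the 3 females, against 11.70, 11.76, 11.43 and 11.48 in the 4 males. The control groups met without overlapping, as for 7.66% of all probe sets, since the highest female stood at 11.42 and the lowest male at 11.43. All 7 females therefore lay below all 8 males, a pattern seen in 0.213% of all probe sets, while females lay above males in 0.0968%.

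The means by the A1_at probe set, in log2 units with their SD, were 10.74 ± 0.05 (n = 4) in females on selenium, 11.30 ± 0.19 (n = 3) in control females, 12.01 ± 0.21 (n = 4) in males on selenium and 11.59 ± 0.16 (n = 4) in control males. In rising order these are females on selenium, control females, control males and males on selenium. Among neighbours in that order, females on selenium lay apart from control females, control females and control males met between 11.42 and 11.43, and the males on the 2 diets overlapped between 11.72 and 11.76. The females on selenium were also the tightest group, with a range of 10.68 to 10.80, and lay below every other fish, as they did for 0.593% of all probe sets. The same order of group means was seen for 7.36% of probe sets.

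**Figure D1:**
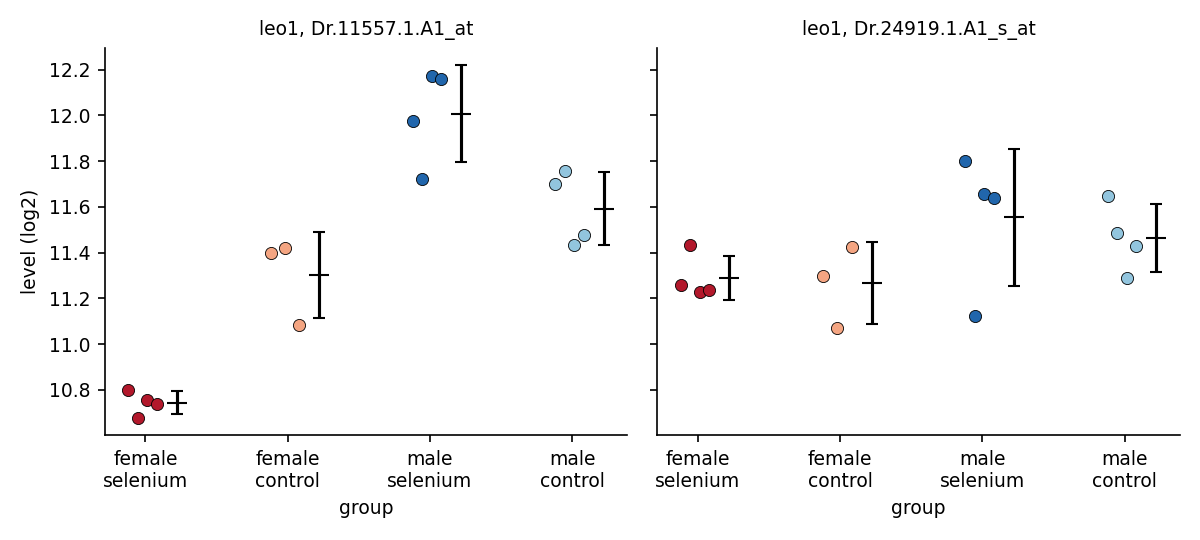
Level of leo1 in each fish, in log2 units, by group, for the A1_at probe set (left) and the A1_s_at probe set (right). Points are fish, and the bar and whiskers beside them are the mean and SD of the group (n = 4, 3, 4 and 4). On the left the females on selenium, between 10.68 and 10.80, lie below all other fish, and on the right the groups overlap. Levels of different probe sets are not comparable, only the differences within a panel.

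As a difference, the A1_at probe set read -1.26 ± 0.11 log2 units (SE, n = 4 and 4) for females minus males on the selenium diet, 2.40-fold lower on the linear scale (95% confidence interval -1.51 to -1.02). On the control diet the same difference was -0.29 ± 0.12 (SE, n = 3 and 4), with an interval from -0.55 to -0.03. It rested in part on female control replicate 3, without which it was -0.18 ± 0.13 (SE, n = 2 and 4), less far from 0 by more than 1.5 times. As a size among all probe sets, 0.503% had a sex difference at least as far from 0 on selenium and 9.76% on the control diet. For orientation, limma called 1.05% of all probe sets between the sexes on selenium, 0.69% lower and 0.355% higher in females, and 0% on the control diet, where 890 probe sets (5.74%) had an unadjusted p under 0.05. These shares stand beside the values of leo1 as background only, since the gene was chosen by this contrast.

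The second probe set, the A1_s_at probe set, read a flatter pattern. Its suffix marks, in the naming of the array's maker, probes shared by more than 1 transcript. The cluster part of the ID is 24919.1 for this probe set and 11557.1 for the A1_at probe set. Whether its signal holds a share of another gene was not tested. The level by the A1_s_at probe set was 11.26, 11.43, 11.23 and 11.24 in females on selenium, against 11.80, 11.12, 11.66 and 11.64 in males on selenium. Here 3 of the 4 males lay above all 4 females, and male selenium replicate 2, at 11.12, lay below all of them. That male also had the highest retina list mean of the 15 fish, 9.32, and the lowest gapdh 3′ minus 5′ difference, 0.66. The part of either in its leo1 level was not tested. On the control diet the A1_s_at probe set read 11.30, 11.07 and 11.43 in females, against 11.65, 11.48, 11.29 and 11.43 in males, and the groups overlapped.

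By the A1_s_at probe set the group means were 11.29 ± 0.10 (SD, n = 4) in females on selenium, 11.27 ± 0.18 (n = 3) in control females, 11.55 ± 0.30 (n = 4) in males on selenium and 11.46 ± 0.15 (n = 4) in control males. Females were again lower on average on both diets, by less than the SD among the males on selenium. The female minus male difference was -0.26 ± 0.13 on selenium (SE, n = 4 and 4; 95% confidence interval -0.55 to 0.02) and -0.20 ± 0.14 on the control diet (SE, n = 3 and 4; -0.50 to 0.11). Without male selenium replicate 2 the difference on selenium was -0.41, and without male selenium replicate 1 it was -0.18. On the control diet, leaving out female control replicate 2 gave -0.10.

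The probe sets thus agreed on the direction between the sexes in both diets and differed in its size on selenium. Their sex differences were 1.00 log2 unit apart on the selenium diet and 0.09 apart on the control diet. Among the 1539 genes with more than 1 probe set, the median range of the sex difference on selenium over the probe sets of a gene was 0.24, and 1.49% of these genes, 23 in number, had a range at least as large as that of leo1. Among the 1192 genes with exactly 2 probe sets this share was 0.923%. On the control diet 66.4% of the 1539 genes had a range at least as large as that of leo1.

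**Figure D2:**
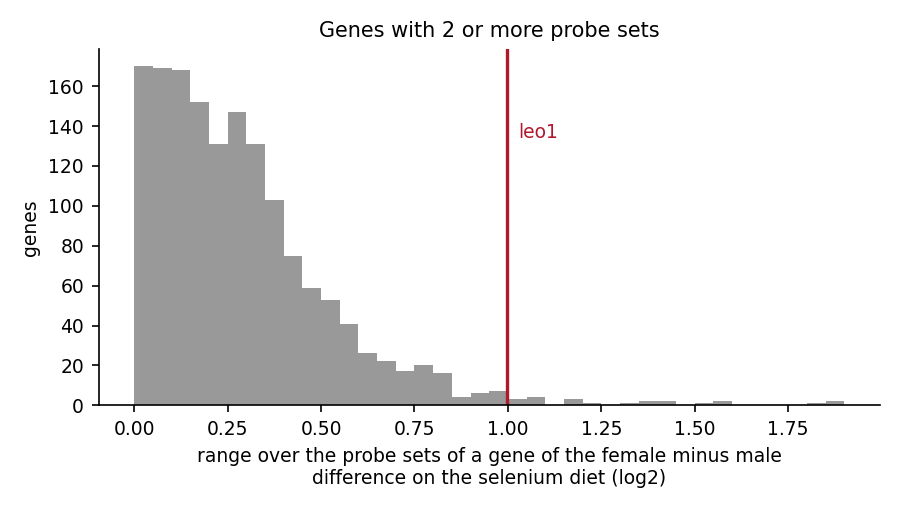
Number of genes (vertical axis) by the range, over the probe sets of a gene, of the female minus male difference on the selenium diet (horizontal axis, log2 units), for the 1539 genes with more than 1 probe set. The line marks leo1 at 1.00, to the right of most genes, whose median is 0.24.

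Taken fish by fish, with each probe set set to 0 at its own mean over all fish, the A1_at probe set minus the A1_s_at probe set lay between -0.77 and -0.48 in females on selenium, -0.36 and 0.33 in control females, 0.16 and 0.58 in males on selenium and 0.03 and 0.26 in control males. The females on selenium were the group where the A1_at probe set read lower than the A1_s_at probe set in every fish, and all males read the other way. Over the 15 fish the probe sets had a Pearson r of 0.58 and a Spearman rho of 0.58, and Pearson r was 0.60 over 13 fish without male selenium replicate 1 and female control replicate 2, those farthest from the median of the A1_s_at probe set. The r of deviations from the group means was 0.38. For genes with exactly 2 probe sets the median r was 0.25 over all fish and 0.26 for the deviations. The r over all fish holds the sex difference by which leo1 was chosen. For the deviations, which leave the group means out, 60.8% of these genes had a lower r than leo1. Which of them reads the leo1 transcript more fully was not tested.

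The diet comparison asked whether the supplement changed leo1 within each sex. By the A1_at probe set the 4 females on selenium averaged 10.74 and the 3 control females 11.30, a difference of -0.56 ± 0.12 log2 units (SE, n = 4 and 3), and the groups did not overlap, as for 6.95% of all probe sets. In males the difference was 0.42 ± 0.11 (SE, n = 4 and 4), with 3 of the 4 males on selenium above all 4 controls. Neither difference passed the test over all probe sets. By limma the adjusted p = 0.316 in females and the adjusted p = 0.937 in males. In each diet comparison limma called 0% of 15502 probe sets, and the share with an unadjusted p under 0.05 was 8.27% in females, 5.23% in males and 5.19% for the average over the sexes. In an exact permutation test over the fish, two-sided and unadjusted, p was 0.0286 in females, the smallest that the 35 assignments can give, and 0.0571 in males, where the smallest of 70 assignments is 0.0286. The fish on selenium enter both these diet differences and the sex difference on selenium by which the gene was chosen, so these p values are not independent of that choice.

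By the A1_s_at probe set the diet difference was 0.02 ± 0.14 in females (SE, n = 4 and 3; 95% confidence interval -0.29 to 0.33; limma, adjusted p = 0.977) and 0.09 ± 0.13 in males (SE, n = 4 and 4; -0.19 to 0.38; limma, adjusted p = 0.968). For this probe set the exact permutation p was 0.971 in females and 0.6 in males. The intervals by the A1_at probe set were -0.82 to -0.30 in females and 0.17 to 0.66 in males. Those of the 2 probe sets barely missed each other in females and overlapped in males. Both probe sets read the same fish, and their disagreement was not tested. By the A1_s_at probe set the direction in females was not stable. The difference was -0.07 when control female 2 was left out and -0.02 when selenium female 2 was left out.

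Averaged over the sexes, the diet difference weights females and males alike and so is separate from the sex difference on selenium. It was -0.07 ± 0.08 log2 units by the A1_at probe set (SE, n = 8 and 7; 95% confidence interval -0.25 to 0.11; limma, adjusted p = 0.986) and 0.06 ± 0.10 by the A1_s_at probe set (-0.15 to 0.27; limma, adjusted p = 0.986). A shift common to both sexes of more than about 0.25 log2 units by the A1_at probe set lies outside this interval. The small mean joins a lower level in females and a higher level in males. The diet difference in females minus that in males was -0.97 ± 0.17 by the A1_at probe set and -0.07 ± 0.20 by the A1_s_at probe set, given without a test because it equals the difference of the sex differences of the 2 diets. Estimates below 0 in females and above 0 in males were seen for 25.1% of all probe sets.

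**Figure D3:**
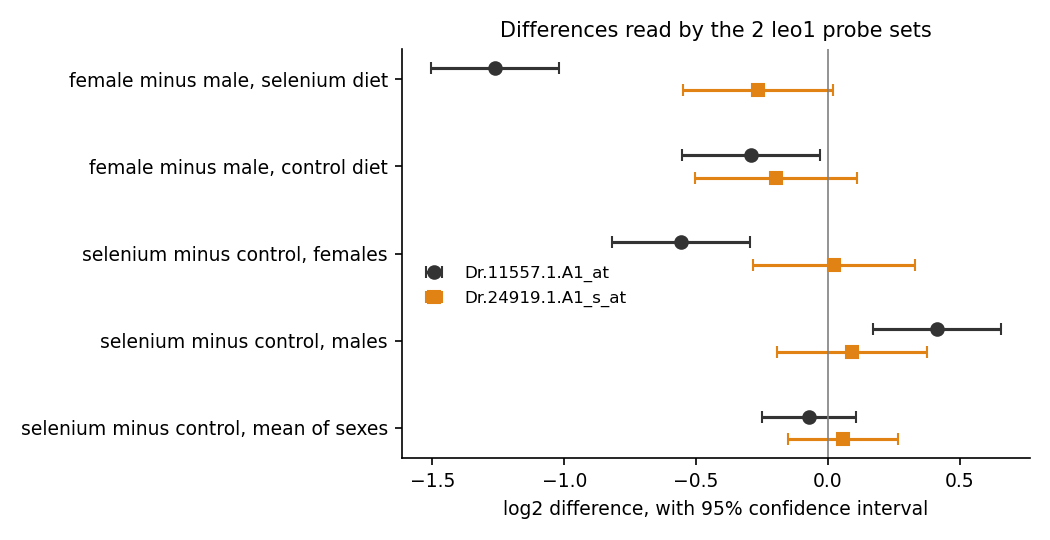
Log2 differences (horizontal axis) of the 2 leo1 probe sets, females minus males on each diet and selenium minus control in each sex and averaged over both, with 95% confidence intervals. the A1_at probe set lies at -1.26 between the sexes on selenium, with the A1_s_at probe set at -0.26, and both lie near 0 in the diet difference averaged over the sexes.

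The array carries 3′ and 5′ control probe sets for gapdh and for actin. The gapdh difference between them ran over the groups in the reverse order of the A1_at probe set, and that of actin did not. The gapdh control probe sets gave a 3′ minus 5′ difference, in log2 units with its SD, of 1.59 ± 0.24 (n = 4) in females on selenium, 1.19 ± 0.37 (n = 3) in control females, 0.93 ± 0.21 (n = 4) in males on selenium and 1.04 ± 0.16 (n = 4) in control males. A larger value means relatively less signal from the far end of the transcript. The 4 females on selenium lay between 1.33 and 1.84 and the 4 males on selenium between 0.66 and 1.17, with no overlap. Among control females, replicate 3 had the highest value, 1.61, and the lowest leo1 level by the A1_at probe set, 11.09. The other groups had another order. Female selenium replicate 1 had the highest value of its group, 1.84, and the highest leo1 level, 10.80. Male control replicate 2 had the highest value of its group, 1.26, and the highest leo1 level, 11.76. Male selenium replicate 2 had the lowest value of its group, 0.66, and the lowest leo1 level, 11.72. The same difference for actin was 4.31 ± 0.56 (SD, n = 4) in females on selenium, 3.35 ± 0.06 (n = 3) in control females, 5.19 ± 2.14 (n = 4) in males on selenium and 3.71 ± 0.15 (n = 4) in control males. It was thus highest in males on selenium, where it spread from 3.09 to 8.18 and overlapped the females on selenium, and it set females on selenium, at 3.83 to 5.09, apart from control females, at 3.29 to 3.41. These actin probe sets are those of acta1, an actin of skeletal muscle. Within both selenium groups the actin difference rose with the muscle list mean. In males on selenium it was 8.18 in replicate 1, where the muscle mean was 9.71, and 3.09 in replicate 4, where it was 6.37. It therefore cannot be read as RNA quality alone, and its part in the leo1 values was not tested.

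With this gapdh difference as a covariate, the sex difference on selenium was -1.26 ± 0.18 log2 units by the A1_at probe set, against -1.26 ± 0.11 without it. By the A1_s_at probe set it was -0.59 ± 0.17, against -0.26 without it. The probe sets were then closer to each other on selenium, and the diet difference in females by the A1_s_at probe set became -0.17 ± 0.14. The gapdh difference did not overlap between the sexes on selenium, so this fit cannot tell its part from that of sex. The neuronal list also stood lower in females on selenium, at a mean of 11.99 ± 0.02 (SD, n = 4), than in males on selenium, at 12.08 ± 0.02 (n = 4). It was 12.03 ± 0.05 (n = 3) in control females and 12.09 ± 0.02 (n = 4) in control males, and its part in the leo1 difference was not tested. With the muscle and retina list means as covariates, the sex difference on selenium was -1.38 ± 0.19 by the A1_at probe set and -0.35 ± 0.19 by the A1_s_at probe set. Both signals reached their highest values in males on selenium, so this fit cannot fully tell their part from that of the group.

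**Figure D4:**
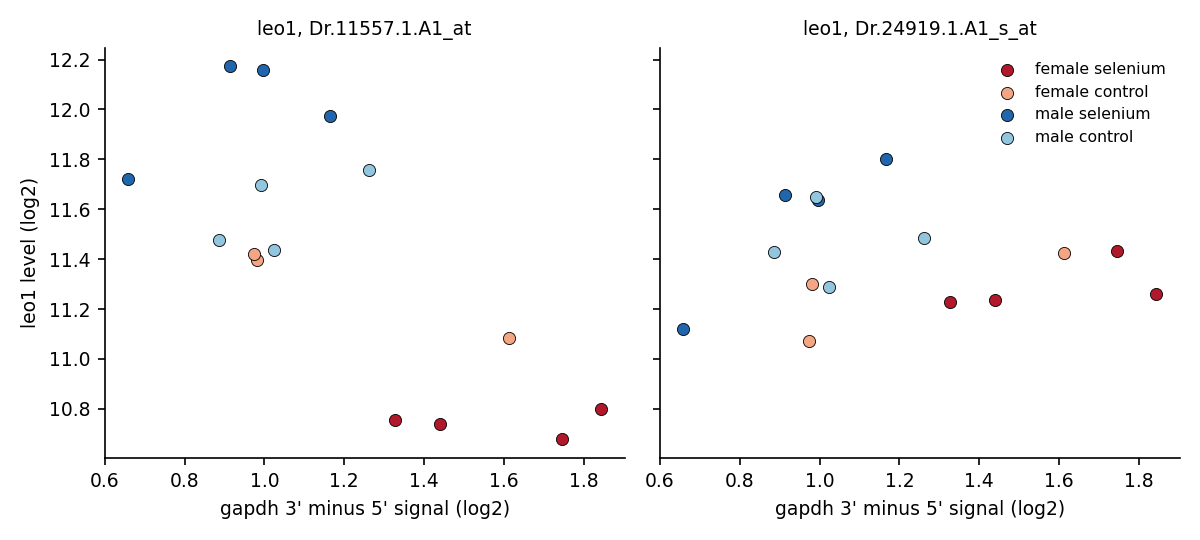
Level of leo1 in each fish (vertical axis, log2 units) against the difference between the 3′ and 5′ control probe sets of gapdh on the same array (horizontal axis, log2 units), for the A1_at probe set (left) and the A1_s_at probe set (right). Females on selenium lie at 1.33 to 1.84 on the horizontal axis, to the right of the males on selenium, at 0.66 to 1.17.

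The other subunits of the Paf1 complex showed whether leo1 moved with its partners. On the selenium diet, rtf1, the subunit that stimulates ubiquitination of histones, read -0.53 ± 0.13 log2 units for females minus males (SE, n = 4 and 4). Its level was 9.26 to 9.77 in females on selenium and 10.04 to 10.29 in males on selenium. The gene annotated as wdr61, now named skic8, whose protein also serves in a complex of RNA decay, read -0.42 ± 0.13, and cdc73, which encodes the tumour suppressor parafibromin, read -0.19 ± 0.07. In the opposite direction, ctr9, the scaffold subunit, read 0.35 ± 0.09, with 10.00 to 10.29 in females on selenium and 9.76 to 9.88 in males on selenium, and paf1 itself read 0.20 ± 0.08. For these 5 genes the brightest probe set is given. The second probe set of paf1 read 0.15 ± 0.08 and that of cdc73 -0.16 ± 0.10, each in the direction of the first. That of cdc73 had a low signal, with group means of 4.56 to 4.74 log2 units, against 8.22 to 8.44 by the first.

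None of these 5 subunits passed the test between the sexes on selenium, a comparison in which leo1, chosen by it, is not tested here. Limma's adjusted p was 0.0584 for rtf1, 0.0635 for ctr9, 0.117 for wdr61, 0.18 for cdc73 and 0.188 for paf1. At an unadjusted p under 0.05 there were 5 of the 5 genes, where 18.6% of all probe sets had one. Females and males on selenium did not overlap for 4 of the 5, where 10.2% of all probe sets did not. The median of the 5 was -0.19, beside 0.01 over all probe sets, with 3 lower and 2 higher in females. On the control diet the 5 genes lay between -0.10 and 0.06. Limma called 0 of them, as it called 0% of all probe sets. At an unadjusted p under 0.05 there were 0, where 5.74% of all probe sets had one. The sexes were kept apart by 0 of the 5, where 7.66% of all probe sets did so. These counts tell little about the complex. With the gapdh difference as a covariate, the selenium values were -0.26 ± 0.17 for rtf1, -0.47 ± 0.20 for wdr61, -0.04 ± 0.10 for cdc73, 0.40 ± 0.13 for ctr9 and 0.14 ± 0.12 for paf1. With the muscle and retina means instead, they were -0.67 ± 0.21, -0.33 ± 0.21, -0.14 ± 0.11, 0.31 ± 0.15 and 0.17 ± 0.13 in the same order. The gapdh difference did not overlap between the sexes on selenium, so that fit cannot tell its part from that of sex.

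**Figure D5:**
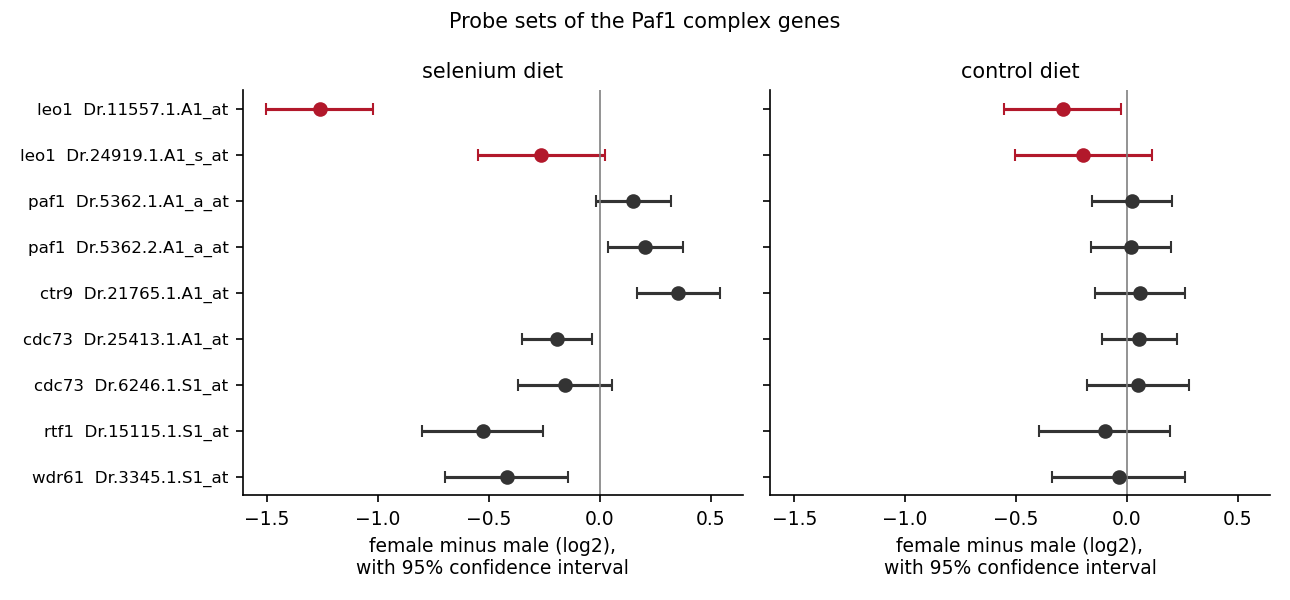
Female minus male differences (horizontal axis, log2 units) with 95% confidence intervals for each probe set of the Paf1 complex genes, leo1 in red, on the selenium diet (left) and the control diet (right). On selenium the subunits fall on both sides of 0, from -1.26 for leo1 to 0.35 for ctr9, and on the control diet the genes other than leo1 lie between -0.10 and 0.06.

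Within each sex the selenium minus control differences of these 5 genes were small, and limma called 0 in females and 0 in males. It called 0% of all probe sets in either comparison, so these counts tell little about the subunits. In females they were -0.24 ± 0.14 for wdr61, -0.22 ± 0.14 for rtf1, -0.22 ± 0.08 for cdc73, 0.14 ± 0.08 for paf1 and 0.17 ± 0.09 for ctr9 (SE, n = 4 and 3), with cdc73 alone at an unadjusted p under 0.05 (limma, adjusted p = 0.526). In males they ran from -0.12 for ctr9 to 0.20 for rtf1, and 0 had an unadjusted p under 0.05. Over all probe sets the share with such a p was 8.27% in females and 5.23% in males. As for leo1 by the A1_at probe set, the estimates of rtf1, wdr61 and cdc73 lay below 0 in females and above 0 in males. This was seen for 25.1% of all probe sets. Those of ctr9 and of paf1 by its brightest probe set lay the other way round. By the second probe set of paf1 the estimates lay above 0 in both sexes.

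Genes that act around the complex were read from further lists. Between the sexes on selenium, 5 of 29 pausing and elongation factors had an unadjusted p under 0.05. So did 4 of 10 genes of histone marks and 2 of 8 subunits of RNA polymerase II. With the 5 Paf1 complex genes this made 16 of 52 (30.8%), where 18.6% of all probe sets had one. Of 29 measured pausing and elongation factors, 1 was called between the sexes on selenium, where limma called 1.05% of all probe sets. This was ssrp1a, a subunit of the histone chaperone FACT, at a female minus male difference of 0.85 ± 0.16 log2 units (SE, n = 4 and 4; limma, adjusted p = 0.0395). Its level by that probe set was 7.15 to 7.80 in females on selenium and 6.37 to 6.74 in males on selenium. A dimmer probe set of ssrp1a read -0.02 ± 0.15, so this gene, like leo1, was read differently by its probe sets. With the gapdh difference as a covariate the ssrp1a difference was 0.34 (limma, adjusted p = 0.564). The call also ended with the muscle and retina means as covariates (0.509), with a fit of only the fish compared (0.0852), and without any 1 of 9 fish (adjusted p between 0.0505 and 0.106), which were males on selenium 1 to 4, females on selenium 1, 2 and 4 and control males 1 and 2.

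The other values of these lists stayed below the threshold in the comparisons of the sexes averaged over the diets and of the diets in each sex. Averaged over the diets, limma called 0 of 52 genes in the 4 lists together between the sexes, where it called 0.142% of all probe sets, and 12 had an unadjusted p under 0.05, where 14.8% of all probe sets had one. The smallest adjusted p was that of ssrp1a, 0.092 at 0.48 ± 0.12. Others of small p were wdr82, a subunit of histone methyltransferases, at 0.20 ± 0.06, kmt2a, a histone methyltransferase, at -0.26 ± 0.08, cxxc1b at 0.22 ± 0.08, wdr5 at 0.16 ± 0.06, the elongation factor gene tcea1 at 0.16 ± 0.06 and the cyclin gene ccnt1, a partner of the kinase that releases paused polymerase, at -0.40 ± 0.16. The median over the members was 0.07 for 29 pausing and elongation factors, 0.09 for 10 genes of histone marks and 0.06 for 8 subunits of RNA polymerase II, beside 0.00 over all probe sets.

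In females the diet comparison gave 0 calls among the 52 genes, with a median of 0.01. At an unadjusted p under 0.05 there were 5 (9.62%), where 8.27% of all probe sets had one. In males the comparison gave 0 calls, with a median of -0.03, and 0 at an unadjusted p under 0.05, where 5.23% of all probe sets had one. Limma called 0% of all probe sets in both comparisons, so the 0 calls tell little about these genes. The genes of smallest p in females were mllt1b, a subunit of the super elongation complex, at 0.44 ± 0.11, and polr2f, a small subunit of RNA polymerase II, at -0.28 ± 0.07 (limma, adjusted p = 0.377 for each). The level of polr2f was 10.61 to 10.79 in females on selenium and 10.92 to 11.04 in control females. The subunit gene polr2i read -0.21 ± 0.12 in the same comparison, and polr2eb and polr2gl, now named polr2g, read 0.11 ± 0.06 and 0.13 ± 0.07 between the sexes averaged over the diets.

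The genes beside leo1 in the RefSeq annotation of the GRCz12tu assembly showed no sex difference of that size. Of the 5 genes on each side, the array measured 8, with 10 probe sets, and their female minus male differences on selenium lay between -0.15 and 0.26, with a median of 0.02. On one side the nearest gene, mapk6, an atypical mitogen-activated protein kinase, read 0.04 ± 0.08 on selenium and 0.01 ± 0.08 on the control diet. On the other side the nearest, tmod2, which caps actin filaments in neurons, read -0.15 ± 0.09 and 0.00 ± 0.09. The value of 0.26 ± 0.12 was that of bcl2l10, a member of the Bcl-2 family (limma, adjusted p = 0.253). It was the 1 probe set of the 10 with an unadjusted p under 0.05 in this comparison, where 18.6% of all probe sets had one. The other neighbours measured were gnb5b, lysmd2, scg3, acadl and tnfaip8l3. Limma called 0 of the 10 probe sets between the sexes on either diet and 0 in either diet comparison. Of all probe sets it called 1.05% between the sexes on selenium and 0% in the other comparisons, so these counts tell little about the neighbours. The gene after these, cyp19a1a, the aromatase of the ovary, was looked at after its position had been seen, and it read 0.02 ± 0.11 on selenium and 0.04 ± 0.12 on the control diet.

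Other genes followed the levels of the A1_at probe set across the 15 fish more closely than the second probe set of leo1 did. The closest, by Pearson r, were sona, which encodes a large nuclear protein of RNA splicing (r = 0.94), the glycolytic kinase gene pgk1 (0.93), atp1b1b, a beta subunit of the sodium pump (0.92), the phosphoglucomutase gene pgm1 (0.90), the unnamed clone fc38b04 (0.89) and the synaptic vesicle gene vamp1a (0.89). The Spearman rho of these 6 ran from 0.83 to 0.94. All 6 had the same order of group means as leo1, with smaller steps. They were picked for the highest r among all named probe sets. The shared order, and an r above that of the second leo1 probe set, follow in part from that choice. The female minus male difference on selenium was -0.56 for sona, -0.38 for pgk1, -0.39 for atp1b1b, -0.67 for pgm1, -0.31 for fc38b04 and -0.61 for vamp1a, beside -1.26 for leo1. Much of this likeness lay between groups. For deviations from the group means r was 0.67 for sona, 0.54 for pgk1, 0.57 for atp1b1b, 0.28 for pgm1, 0.46 for fc38b04 and 0.12 for vamp1a. The most opposite were the tubulin gene tuba5 (r = -0.89), the chromatin remodelling gene arid2 (-0.89) and si:ch211-132d3.4 (-0.88). For tuba5 the sex difference on selenium was 1.00.

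A different set of genes followed the A1_s_at probe set. They were sox10, a transcription factor of the neural crest and of oligodendrocytes (r = 0.83), the membrane raft gene rftn2 (0.82), slain1a, a regulator of microtubule growth (0.82), spryd7b (0.81), si:ch211-133n4.4 (0.80) and epb41l5 (0.78). Here the likeness was also present within groups, where r of the deviations ran from 0.73 for epb41l5 to 0.90 for spryd7b. The most opposite were sema6ca (r = -0.82), the helicase gene eif4a3 of the exon junction complex (-0.81) and the RNA-binding gene hnrnpabb (-0.81). The 6 highest of the 2 probe sets had no gene in common. These likenesses were picked as the highest among all named probe sets, the fish share sex, diet and array, and they carry no test.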

How the data were processed

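The authors deposited log2 expression values, 1 per probe set and array, that were made with RMA and affy, per the submitters' processing notes (versions not given in the sources used here). RMA corrects background, gives all arrays a like distribution and summarises probes, so it can compress differences. The table was used without further scaling. Of 15617 probe sets, 115 control probe sets were left out. The annotation gave 1 symbol to 10795 probe sets, several to 135 and none to 4572, and symbols were updated through RefSeq gene IDs.

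With 1 mean per group, all probe sets of all 15 fish were fitted together in limma 3.58.1 in R 4.3.3 (11 residual degrees of freedom), two-sided, with Benjamini-Hochberg adjustment over 15502 probe sets and a threshold of 0.05. In simulated data, a log2 difference of 1 in 200 of 15502 probe sets was recovered for 84.5% in females on selenium against controls, 88.5% in males, 97.5% for the diets over both sexes and 96.5% for the sexes over both diets. Precision is limited by how many fish there were.

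The text names all leo1 probe sets, all Paf1 complex genes, up to 4 genes of smallest p of each other pathway list, the 6 most and 3 least alike genes of each leo1 probe set, and the 5 annotated genes on each side. The gene, the lists, the tests and the alternatives were chosen with earlier results of these data known. Alternatives changed the scaling, the filter, the variance model, the array weights, the covariates and the fish included.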

Additional observations from a re-analysis of the deposited data

Results flagged for a closer look

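Among the 30 groups of 4 fish examined for a single distant fish, 3 held one, where chance gives about 1 in 20. By the A1_s_at probe set, leo1 stood at 11.43 in female selenium replicate 2, and the other 3 females on selenium lay between 11.23 and 11.26. Female selenium replicate 3 stood apart from its group for cdc73 by both probe sets, at 8.29 by the brighter, against 8.19 to 8.20 in the others, and at 4.86 by the dimmer, against 4.43 to 4.48.

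Of the leo1 and Paf1 complex probe sets, 4 had an opposed pattern. Every female on selenium lay on one side of the mean of the control females. Every male on selenium lay on the other side of the mean of the control males. The share of all probe sets with this pattern was not counted, so it cannot be read as a trait of these genes. Estimates below 0 in females and above 0 in males, a looser pattern in 1 direction, were seen for 25.1% of all probe sets. The diet difference in females minus that in males was -0.97 for leo1 by the A1_at probe set, where the difference was not tested because it belongs to the pattern by which the gene was chosen. It was -0.43 for rtf1, -0.38 for wdr61 and 0.29 for ctr9. For these 3 the same difference in limma had an adjusted p of 0.587, 0.607 and 0.587, so none passed.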

How the results depend on the processing

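By the A1_at probe set, the sex difference on selenium stayed between -1.36 and -1.21 with any one fish left out and was -1.43 when male selenium replicates 1, 2 and 4 were all left out, a setting chosen after seeing the data, in which the lone male on selenium borrows its spread from the other groups. The sex difference on the control diet ran from -0.35 to -0.18 over single fish left out. The diet difference in females was -0.56, and its adjusted limma p ran from 0.123 to 0.799 over single fish left out. In the exact permutation test, not adjusted over probe sets, its p was 0.0286, the smallest that the 35 assignments can give. The 2 groups did not overlap, as for 6.95% of all probe sets. The sex difference that chose the gene includes the females on selenium, so this p is not independent of that choice. With arrays centred on their medians this diet difference was -0.50. The difference averaged over the sexes turned to 0.016 with muscle and retina as covariates and to 0.011 without those 3 males. By the A1_s_at probe set, with the gapdh covariate the sex difference on selenium was -0.59, the diet difference in females -0.17 and that averaged over the sexes -0.016. Over single fish left out its diet difference in females ran from -0.074 to 0.10. The cause of these changes was not tested. Of the 52 pathway genes, those called between the sexes on selenium numbered 1, where limma called 1.05% of all probe sets. They numbered 2 with arrays centred on their medians, and 0 to 4 over single fish left out. The share of all probe sets called in these alternatives is not given here, so these counts cannot be read as a trait of the pathway. No paired analysis was possible because each fish has a number of its own and the labels pair no fish. With 3 or 4 fish a group, the confidence interval of a probe set, not adjusted over probe sets, reached a median distance from its estimate. This was 0.25 log2 units for the sexes on selenium and the diets in males. It was 0.27 for the sexes on the control diet and the diets in females. Smaller differences often could not be told from 0 even before adjustment. Larger ones need not pass the adjusted test. The diet difference of leo1 in females by the A1_at probe set, -0.56, had an adjusted limma p of 0.316.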

Other observations

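Likeness to the A1_at probe set was also measured by the size of the steps, as the root mean square difference between profiles over the 15 fish, each set to 0 at its own mean. By this measure the closest genes were slc25a11, the mitochondrial carrier of 2-oxoglutarate, at 0.255 log2 units, tspan34b at 0.256, pgm1 at 0.271, cnksr2b at 0.271, sona at 0.281 and si:dkey-164f24.2 at 0.284, where the SD of leo1 over all fish was 0.511. For the A1_s_at probe set, whose SD was 0.213, the closest were sox10 at 0.116, si:ch211-133n4.4 at 0.127, epb41l5 at 0.132, pvalb6 at 0.134, and rftn2 and spryd7b at 0.136 each.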
